A study of Mus musculus with 6 samples.

Results

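The proteasome genes of mouse liver were followed here: all genes on the array whose single annotated symbol starts with Psma, Psmb, Psmc, Psmd or Psme. They numbered 44 of the 18193 genes that had a probe set with a single symbol, and 91 probe sets carried their names. Of the 44, 42 passed the filter on dim probe sets, which left out the lowest 40% of probe sets by their mean over all arrays, and were tested among 13718 genes. Psma8, a testis form of an alpha subunit, and Psmc3ip, a recombination factor that shares the first letters, did not pass it. Psme2 was not analysed here as a gene, because its probe set also names Psme2b, so 4 of the 5 immunoproteasome genes had a value. Membership was set by names, but the group was chosen with earlier results of these data known.

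Livers of male mice aged 8 weeks on a mixed background were taken after a fast of 24 h, with standard chow before it. Mig-6 f/f livers were hybridized on 3 arrays and Mig-6 d/d livers on 3, per the labels. Mig-6, encoded by Errfi1, binds and shuts off the receptor for epidermal growth factor. The f/f mice carry the floxed allele and are the controls, and the promoter or Cre line that made the d/d allele, its cell type and the use of single or pooled animals are not given in the sources used here. P-values therefore measure the spread between these samples. The number of arrays limits the precision.

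The proteasome is the protease that degrades proteins tagged with ubiquitin. Its core particle is a barrel of alpha rings around beta rings, and 3 beta subunits (Psmb5, Psmb6 and Psmb7) carry the active sites. A regulatory particle caps the barrel: its base holds the ATPases Psmc1 to Psmc6, which unfold substrates, and its lid removes ubiquitin chains. Interferon induces Psmb8, Psmb9 and Psmb10, which take the places of Psmb5, Psmb6 and Psmb7 in the immunoproteasome, and Psme1 and Psme2, which form another cap. In the liver the immunoproteasome is known from immune cells and from hepatocytes under inflammation, and transcription of the constitutive subunits is driven by Nrf1, the protein of Nfe2l1.

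Upstream sequences of both kinds of catalytic subunit are shown first, because the comparison turns on these subunits. That of Psmb7 is not printed. RefSeq (build GRCm38.p6) held an upstream window for 25 of the 31 constitutive subunits and for all 4 immunoproteasome genes with values. The first 250 bases before each start were searched on both strands for a pair of GAAA repeats separated by any 2 bases (a core of interferon response elements), TTCNNNGAA (the palindrome bound by STAT proteins), TGACNNNGC (the core bound by Nrf1 and Nrf2) and CCAAT (the box bound by NF-Y). The 200 bases before the start are printed, in the 5′ to 3′ direction of the gene, with matches in capitals. Those of Psmb8 lie at chr17:34197995-34198194, plus strand, of Psmb10 at chr8:105938393-105938592, minus strand, of Psmb5 at chr14:54617996-54618195, minus strand, and of Psmb6 at chr11:70525157-70525356, plus strand. Psmb9 and the peptide transporter gene Tap1 are divergent neighbours, and for them the whole stretch of 225 bases between the starts is shown on the strand of Tap1 (chr17:34187331-34187555, plus strand). The last line is Psmd9 (chr5:123227990-123228189, plus strand), the member with the lowest p.
Psmb8: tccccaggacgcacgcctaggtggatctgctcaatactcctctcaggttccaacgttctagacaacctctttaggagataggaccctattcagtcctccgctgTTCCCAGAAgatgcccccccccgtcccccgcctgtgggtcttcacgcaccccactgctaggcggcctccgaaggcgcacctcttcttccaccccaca
Psmb9 and Tap1: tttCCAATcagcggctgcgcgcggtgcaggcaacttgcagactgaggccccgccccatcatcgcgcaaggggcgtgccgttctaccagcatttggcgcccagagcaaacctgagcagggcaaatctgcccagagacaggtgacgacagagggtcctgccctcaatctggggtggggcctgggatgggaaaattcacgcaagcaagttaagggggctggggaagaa
Psmb10: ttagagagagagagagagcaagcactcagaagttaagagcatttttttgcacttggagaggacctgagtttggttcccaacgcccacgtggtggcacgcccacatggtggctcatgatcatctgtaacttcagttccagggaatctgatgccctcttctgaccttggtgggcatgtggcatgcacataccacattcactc
Psmb5: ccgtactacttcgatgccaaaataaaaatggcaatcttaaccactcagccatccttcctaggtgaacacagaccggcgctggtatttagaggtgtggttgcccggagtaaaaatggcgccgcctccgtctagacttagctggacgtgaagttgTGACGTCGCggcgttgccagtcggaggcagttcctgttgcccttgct
Psmb6: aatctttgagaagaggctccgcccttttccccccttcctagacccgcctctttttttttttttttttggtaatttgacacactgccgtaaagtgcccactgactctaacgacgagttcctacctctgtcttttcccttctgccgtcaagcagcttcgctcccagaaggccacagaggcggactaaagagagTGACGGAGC
Psmd9: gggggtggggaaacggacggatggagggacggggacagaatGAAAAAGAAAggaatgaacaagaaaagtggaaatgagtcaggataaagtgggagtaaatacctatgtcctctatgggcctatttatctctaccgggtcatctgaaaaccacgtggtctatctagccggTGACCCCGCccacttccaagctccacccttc

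Psmb8 held TTCCCAGAA, a STAT palindrome, and the stretch shared by Psmb9 and Tap1 held a CCAAT box beside the start of Psmb9. Psmb5 and Psmb6 each held the Nrf1 and Nrf2 core, TGACGTCGC and TGACGGAGC. Psmd9 held that core too, as TGACCCCGC, and an interferon element core, GAAAAAGAAA. Over the 250 bases, the Nrf1 and Nrf2 core was present for 4 of the 25 constitutive subunits (16%), against 11.5% of the 27025 genes with such a window. The 4 were Psmb5, Psmb6, Psmc6 and Psmd12, and Psmb7 was not among them. The interferon element core was present for 2 of the 25 (8%) against 3.46%, the STAT palindrome for 0 of the 25 against 8.13%, and the CCAAT box for 10 of the 25 against 37.5%. Among the 4 immunoproteasome genes, the STAT palindrome was found in Psmb8, the CCAAT box in Psmb9, and the other 2 motifs in none of these windows. A match is a description of the letters and not a site.

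Values below are intensities after quantile normalization, given for f/f replicates 1, 2 and 3 and then d/d replicates 1, 2 and 3. Each difference subtracts the f/f mean from the d/d mean of log2(intensity + 16) and carries limma's standard error, and adjusted p-values are limma's with Benjamini-Hochberg adjustment over all 13718 genes. Errfi1 read 5534, 5275 and 5517 in f/f and 67.8, 59.9 and 63.4 in d/d, a log2 difference of -6.10 ± 0.10 (limma, adjusted p = 4.91e-08). It was 1 of the 13 genes, 0.0948% of those tested, that passed an adjusted p of 0.05. F/f replicate 3 differed from the other arrays in quality measures: its control probe sets for 18S ribosomal RNA averaged 3807, where the rest had 218 to 455, and it correlated with the rest at 0.963 on average, against 0.978 to 0.981 for each of them. The liver label was borne out by its markers, with deposited intensities of 33743 to 35800 for albumin (Alb).

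Constitutive proteasome subunits lay slightly lower in the d/d livers nearly throughout, and most immunoproteasome subunits had the opposite sign. Of the 31 constitutive subunits, 29 (93.5%) had a negative difference, against 53.5% of all genes tested. These subunits were read on the same 6 arrays and are not independent observations. Their median difference was -0.15, or 1.11 times lower, where the median over all genes was -0.015. Among the 4 immunoproteasome genes 3 had a positive difference, with a median of 0.18. The contrast between both sets was not tested. Over all 42 members 6 were positive, against 46.5% of all genes. None of these differences passed: 0 of the 42 members had an adjusted p under 0.05, and the lowest was 0.435 (limma with Benjamini-Hochberg adjustment). At an unadjusted p under 0.05 in limma, 4 members (9.52%) were lower, against 3.07% of all genes, and 0 were higher, against 4.77%. Only 2 of the 4, Psmc2 and Psmd4, are among the 31 constitutive subunits. The others were the chaperone Psmd9 and Psme3ip1, which is not a subunit. In either direction the background was 7.84%.

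**Figure D1:**
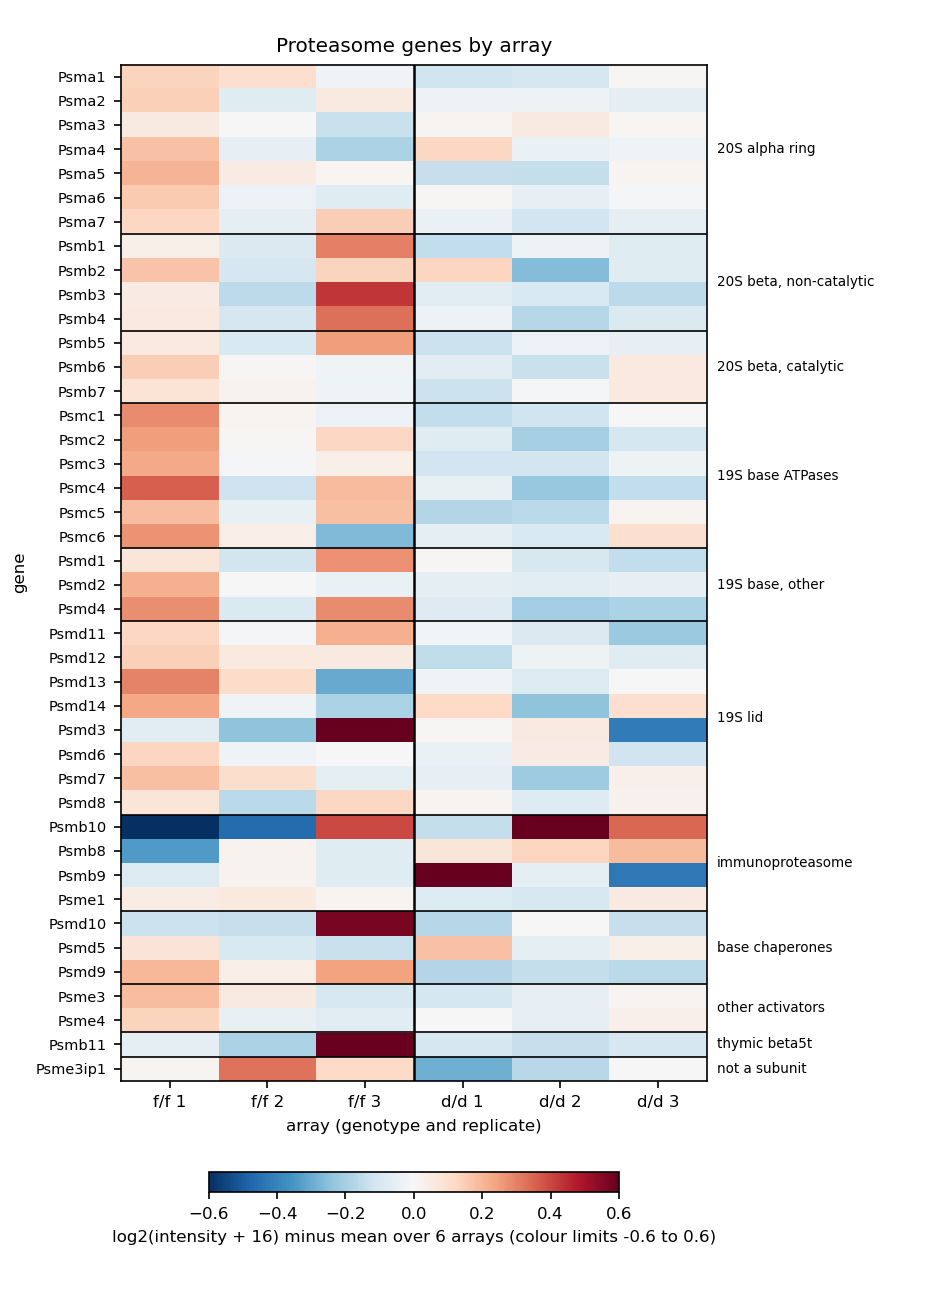
Each row is a proteasome gene and each column an array. Colour gives the log2(intensity + 16) minus the gene's mean over the 6 arrays, with colours limited to 0.6 on either side; 20S marks the core particle and 19S the regulatory particle. Among the 31 constitutive subunits, in the 6 upper blocks, the highest array is f/f replicate 1 for 21 and f/f replicate 3 for 10.

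The shift of the constitutive subunits came with a wide spread among the f/f arrays. Averaged over the 31 subunits, the log2 level relative to each gene's mean was 0.16, -0.034 and 0.080 in f/f and -0.048, -0.099 and -0.054 in d/d. The f/f replicate 2 array thus lay just above the d/d arrays, and the other f/f arrays were well above. For all 31 subunits the highest array was f/f replicate 1 (21 subunits, in a tie with d/d replicate 2 for Psma3) or f/f replicate 3 (10 subunits), and for 24 the lowest was a d/d array. F/f replicate 1 exceeded all d/d arrays for 29 subunits, f/f replicate 3 for 18 and f/f replicate 2 for 10. For 17 subunits f/f replicate 2 lay within the d/d range. Without f/f replicate 1 the count of negative differences was 24 of 31 and the median -0.10, and without f/f replicate 3 they were 28 and -0.12. For 22 of the 31 subunits the sign stayed negative whichever of the 6 arrays was omitted.

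The intervals give the precision of each gene's difference separately and do not hold jointly for the 31 subunits. The standard errors of the 31 subunits ran from 0.10 to 0.24 with a median of 0.12, and 29 of the 95% intervals included 0. The widest interval, that of Psmd3, reached -0.80, a change of 1.74 times, and no constitutive interval reached further in either direction. Other probe sets of these genes give a second view of the same RNA. Of 27 that passed the dim filter and were not the brightest of their gene, 17 had a negative difference. Of the 14 among them with a mean intensity of at least 200, 12 did.

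**Figure D2:**
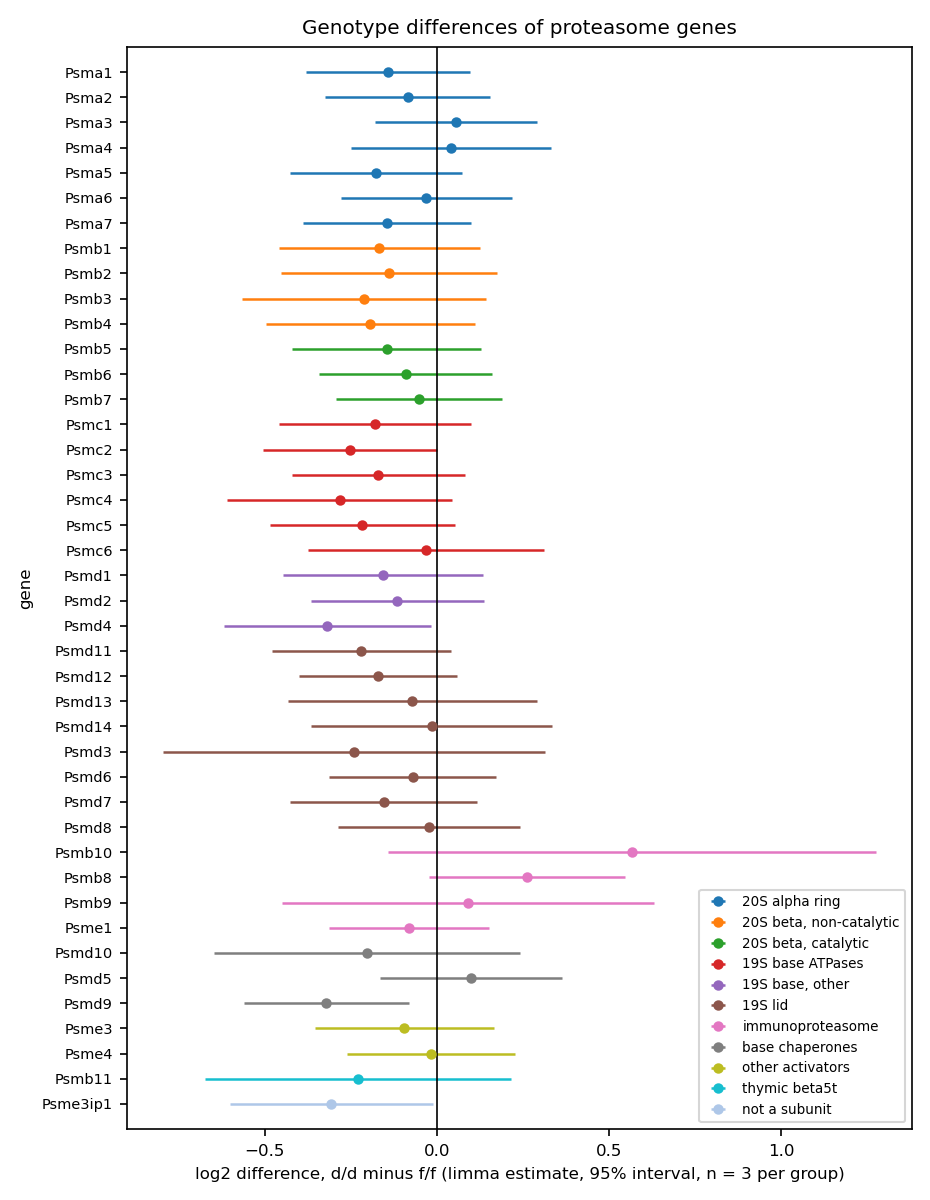
Points are log2 differences, d/d minus f/f, for the 42 tested proteasome genes, coloured by structural group, and bars are 95% intervals from limma (n = 3 per group). Constitutive subunits sit to the left of 0 except Psma3 and Psma4, and Psmb10 lies farthest to the right with the widest interval.

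In the alpha ring, the gated entrance of the barrel, differences were the smallest of the large groups. Of the 7 genes 5 were negative, with a median of -0.085. Psma5 read 1231, 1106 and 1078 in f/f and 969.8, 966 and 1079 in d/d, a log2 difference of -0.18 ± 0.11 (limma, adjusted p = 0.775). The groups overlapped by a single d/d array, replicate 3. Psma3 had the highest difference of the ring, 0.055 ± 0.10, with 1875, 1805 and 1649 in f/f and 1832, 1875 and 1826 in d/d. The d/d values lay within the f/f range. Psma4 was the other positive one, at 0.041 ± 0.13 with an interval of -0.25 to 0.33.

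Among the beta subunits without an active site, Psmb1 to Psmb4, all 4 differences were negative, with a median of -0.18. Psmb3 read 1171, 1014 and 1531 in f/f and 1079, 1062 and 1013 in d/d (log2 difference -0.21 ± 0.15, limma, adjusted p = 0.804). The f/f replicate 3 array was far above the rest, and without it the difference was -0.052. Psmb1 and Psmb4 had the same order, with f/f replicate 3 at 2128 and 2291 against 1552 to 1781 in their d/d arrays. Without f/f replicate 3 they had -0.058 and -0.076. Psmb2 had -0.14 ± 0.14 and overlapping groups.

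The catalytic subunits of the standard core had small negative differences. Psmb5, with the chymotrypsin-like site, read 1250.5, 1124 and 1431 in f/f and 1094, 1169 and 1157 in d/d, a log2 difference of -0.15 ± 0.12 (limma, adjusted p = 0.821). Psmb6, with the caspase-like site, read 1148, 1039.7 and 1019 against 989, 940.1 and 1079 (-0.091 ± 0.11). Psmb7, with the trypsin-like site, read 1351, 1293 and 1253 against 1164, 1268 and 1327 (-0.052 ± 0.10, interval -0.29 to 0.19). The groups overlapped for all 3 genes, and without f/f replicate 3 the difference of Psmb5 was -0.057.

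The base of the regulatory particle held the lowest median of the constitutive groups, -0.20 over its 6 ATPases, all of them negative. Psmc2 read 1147, 966 and 1048 in f/f and 912, 835 and 891 in d/d, a log2 difference of -0.25 ± 0.11 (limma, unadjusted p = 0.0491, adjusted p = 0.634). Every d/d array lay below every f/f array. Another probe set of Psmc2, at about the same intensity, gave -0.25 ± 0.11 as well. Psmc4 read 572, 405 and 508 against 429, 375 and 398, at -0.28 ± 0.14 (limma, adjusted p = 0.707), and f/f replicate 2 fell within the d/d range. Psmc3 had separate groups at -0.17 ± 0.11, and Psmc6 was nearest to 0, at -0.032 ± 0.15.

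Of the base subunits that are not ATPases, Psmd4, a receptor for ubiquitin chains, had the most negative difference of all constitutive subunits. It read 1223, 946 and 1226 in f/f and 951, 867 and 878 in d/d, a log2 difference of -0.32 ± 0.13 (limma, unadjusted p = 0.0402, adjusted p = 0.602). F/f replicates 1 and 3 were high, and f/f replicate 2 lay just under d/d replicate 1. With its probe sets averaged the difference was -0.21 (limma, adjusted p = 0.746). Psmd2, a scaffold that docks shuttle proteins, read 792, 678 and 662 against 655, 648 and 656. The d/d arrays were tightly grouped below all f/f arrays, though the log2 difference was only -0.11 ± 0.11. Averaged over both of its probe sets it was 0.038.

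All 8 lid subunits had negative differences, with a median of -0.11. Psmd11, a scaffold of the lid, read 2407, 2192 and 2555 in f/f and 2176, 2074 and 1885 in d/d, with groups that did not overlap and a log2 difference of -0.22 ± 0.11 (limma, adjusted p = 0.712). Its other probe sets went both ways: a pair of bright ones gave -0.26 and 0.20, and a dim one gave 0.40. With the probe sets averaged, the Psmd11 difference was -0.00012 (limma, adjusted p = 0.9999). Psmd12 also had separate groups, at 919, 866 and 864 against 746, 813 and 789 (-0.17 ± 0.10). Psmd3 read 500.3, 443 and 847 against 528, 547 and 389, and its difference of -0.24 ± 0.24 became 0.034 without f/f replicate 3. Psmd14, the deubiquitinase of the lid, was the nearest to 0 in the group, at -0.015 ± 0.15.

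Over all members, d/d arrays lay wholly below f/f arrays for 7 of 42 (16.7%), namely Psmc2, Psmc3, Psmd2, Psmd11, Psmd12, Psmd9 and Psme3ip1. The share among all genes was 6.79%. They lay wholly above for Psmb8 alone (2.38%), against 7.9% of all genes. The 8 members together compare with 14.7% of all genes in either direction.

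Psmb8 lay higher in d/d while the subunit it replaces did not. It read 169, 221 and 206 in f/f and 230.0, 239.9 and 251 in d/d, a log2 difference of 0.26 ± 0.12, or 1.2 times (limma, unadjusted p = 0.0666, adjusted p = 0.678). The groups did not overlap, f/f replicate 1 being the lowest of all arrays, and the difference was 0.16 without it. Its dim probe set, below the filter, gave 0.24 ± 0.19. The log ratio of Psmb8 to Psmb5 within an array was 0.41 higher in d/d, with an SD of 0.28 among f/f and 0.037 among d/d arrays (n = 3 each). Relative to its mean over the arrays this ratio was -0.40, 0.11 and -0.32 in f/f and 0.20, 0.17 and 0.24 in d/d, so f/f replicate 2 lay close under the d/d arrays.

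Psmb10 had the largest positive difference of the members and the largest standard error. It read 291, 367 and 678 in f/f and 462, 813 and 653 in d/d, a log2 difference of 0.57 ± 0.31 (limma, adjusted p = 0.738, 95% interval -0.14 to 1.28). F/f replicate 3 lay among the d/d arrays. Without that array the difference was 0.91 (limma, unadjusted p = 0.00248, adjusted p = 0.125), and without f/f replicate 1 it was 0.32. The log ratio of Psmb10 to Psmb7 was 0.62 higher in d/d, against an SD of 0.66 among f/f arrays.

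Psmb9 had a small positive difference and Psme1 a small negative one. Psmb9 read 219.5, 237 and 221 in f/f and 366, 224 and 169 in d/d, a log2 difference of 0.090 ± 0.23 (limma, adjusted p = 0.941). The d/d arrays held both the highest and the lowest value, and the sign followed single arrays: -0.20 when d/d replicate 1 was omitted and 0.32 when d/d replicate 3 was. Psme1, which forms the interferon-induced cap with Psme2, read 662, 669 and 648 against 605, 599 and 666 (-0.081 ± 0.10, interval -0.31 to 0.15). Omitting f/f replicate 1 took the group median from 0.18 to 0.11. Omitting replicate 1 or 3 of d/d took it to 0.12 or 0.28.

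**Figure D3:**
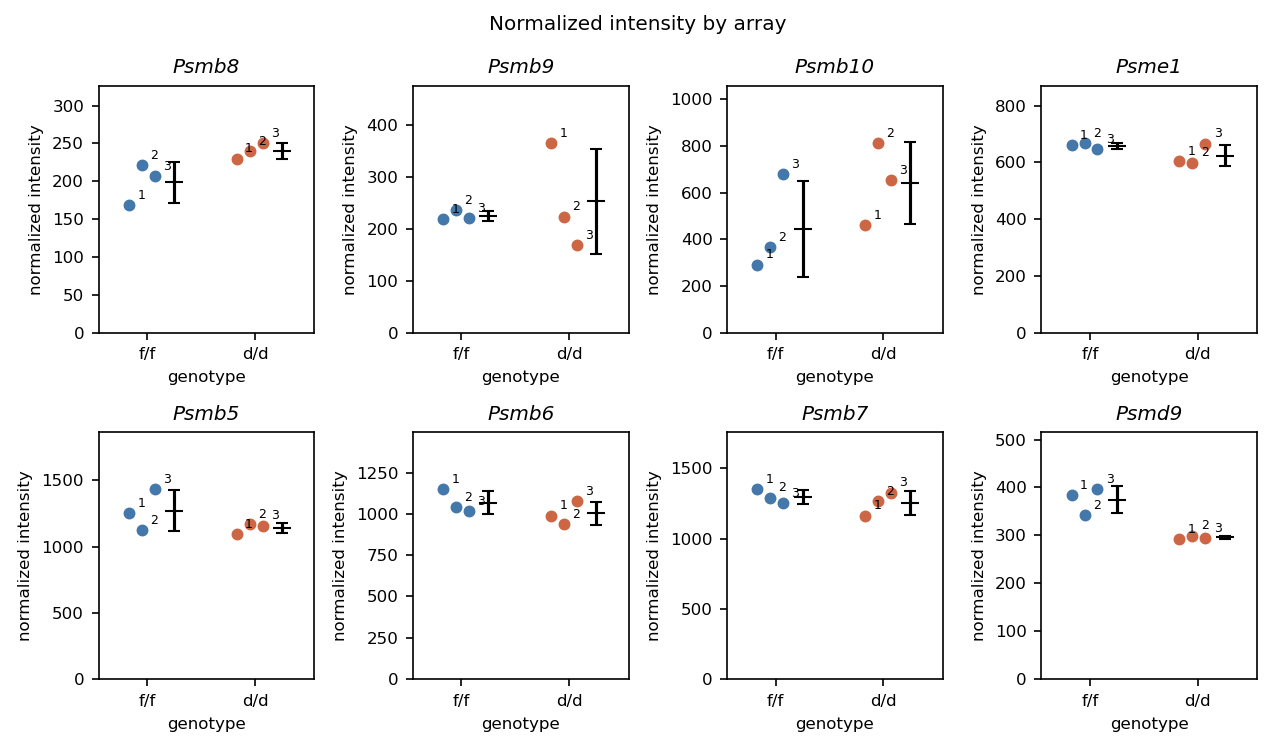
Normalized intensity of 8 proteasome genes on each array, with f/f in blue, d/d in orange, replicate numbers beside the points, and the mean with its SD in black (n = 3). Axes start at 0. Psmb8 is above all f/f arrays in d/d, Psmb9 and Psmb10 are scattered, and Psmd9 is below all f/f arrays in d/d.

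The chaperones that assemble the base had the member with the lowest p. Psmd9 read 384, 343 and 396 in f/f and 292, 299.6 and 295 in d/d, a log2 difference of -0.32 ± 0.10, or 1.25 times lower (limma, unadjusted p = 0.0145, adjusted p = 0.435). The d/d arrays nearly coincided and lay under every f/f array. A second probe set above the filter gave -0.29 ± 0.15. Psmd10, known as gankyrin, read 207, 206 and 346 against 200.1, 228 and 205 (-0.20 ± 0.19), and f/f replicate 3 was far above the rest. Without it the difference was 0.031. Psmd5 had 0.099 ± 0.12.

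The remaining members were caps and genes outside the liver particle. Psme3 and Psme4, nuclear activators that do not need ubiquitin, had -0.095 ± 0.11 and -0.017 ± 0.11. Psmb11, the catalytic subunit of the thymus, read 84.7, 76.1 and 142 in f/f and 81.6, 79.3 and 81.7 in d/d, near the dim limit of 48.3, and its difference of -0.23 ± 0.19 was 0.0085 without f/f replicate 3. Psme3ip1, a partner of Psme3 and not a subunit, read 219, 276 and 236 against 174, 191 and 216 (-0.31 ± 0.13, limma, unadjusted p = 0.0437, adjusted p = 0.618).

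Genes that assemble or service the proteasome mostly had positive differences. Of 20 assembly factors and regulators tested, 14 had a positive difference, with a median of 0.10, and 0 passed in limma, adjusted or unadjusted. Their mean log2 level relative to each gene's mean was 0.066, 0.018 and -0.26 in f/f and 0.18, -0.029 and 0.022 in d/d. F/f replicate 3 was thus far below the rest, and the other f/f arrays lay within the d/d range. Pomp, which matures the core, had -0.059 ± 0.10, the assembly chaperone Psmg1 0.15 ± 0.13 and the deubiquitinase Usp14 -0.16 ± 0.11. The largest differences of the list, chosen after their values were seen, were those of the ubiquitin shuttle Ubqln4 (0.87 ± 0.70) and the assembly chaperones Psmg2 (0.40 ± 0.23) and Psmg4 (0.36 ± 0.18), all with overlapping groups. That of Ubqln4 rested on d/d replicate 1, at 910.1 where the other arrays had 95.9 to 127, and was -0.11 without it. Nfe2l1, the gene of Nrf1, read 311, 287 and 560.2 in f/f and 332, 363 and 295 in d/d. Only f/f replicate 3 was high, and the difference of -0.16 ± 0.23 became 0.13 without it.

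The related factor Nfe2l2, the gene of Nrf2, read 374, 293 and 195 against 383, 391 and 456 (0.53 ± 0.21, limma, unadjusted p = 0.0355, adjusted p = 0.587). The lowest value was f/f replicate 3, and without it the difference was 0.29. With the probe sets of Nfe2l2 averaged it was 0.27 (limma, adjusted p = 0.777). Of 10 targets of Nrf2, 4 were positive and 6 negative, with a median of -0.11. Gclc, which makes the precursor of glutathione, had 0.51 ± 0.16 (limma, adjusted p = 0.391) and Gstm1, a glutathione transferase, -0.41 ± 0.12 (adjusted p = 0.388).

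Among 12 genes of ubiquitin handling and retrieval from the endoplasmic reticulum, 7 were positive and 0 passed. Their mean log2 level was 0.029, 0.065 and -0.23 in f/f and 0.021, -0.025 and 0.14 in d/d, lowest in f/f replicate 3. Herpud1, which hands membrane proteins to the proteasome, had the highest difference, with 2049, 2784 and 2532 in f/f against 4141, 3811 and 4368 in d/d (0.75 ± 0.14, limma, unadjusted p = 0.000559, adjusted p = 0.125, but 0.0209 with array weights). Its groups were well apart. Vcp, the segregase that pulls out substrates, had -0.10 ± 0.11. The 12 autophagy genes were evenly divided, with a median of 0.0027, and Sqstm1, the receptor for ubiquitin-tagged cargo, read 2151, 2099 and 2045 against 1737, 1679 and 1556 (-0.34 ± 0.10, limma, adjusted p = 0.388).

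Heat shock genes and interferon response genes mostly had positive differences. Of 11 heat shock genes 10 were positive, with a median of 0.41, and 5 had an unadjusted p under 0.05 in limma, where 4.77% of all genes were higher at that level. Hsph1, a chaperone of the heat shock family, went from 162 ± 5.46 to 295 ± 30.7 (SD, n = 3), at 0.80 ± 0.11 (limma, adjusted p = 0.07, but 0.0258 without f/f replicate 3 and 0.00571 with array weights). Of 14 interferon response genes 12 were positive, with a median of 0.24, and 5 had an unadjusted p under 0.05. Iigp1, an interferon-induced GTPase, had 0.55 ± 0.098 (limma, adjusted p = 0.121, but 0.0432 with an intensity trend and 0.0174 with array weights), while Irf1, the factor known to drive Psmb8 and Psmb9, had -0.13 ± 0.14.

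**Figure D4:**
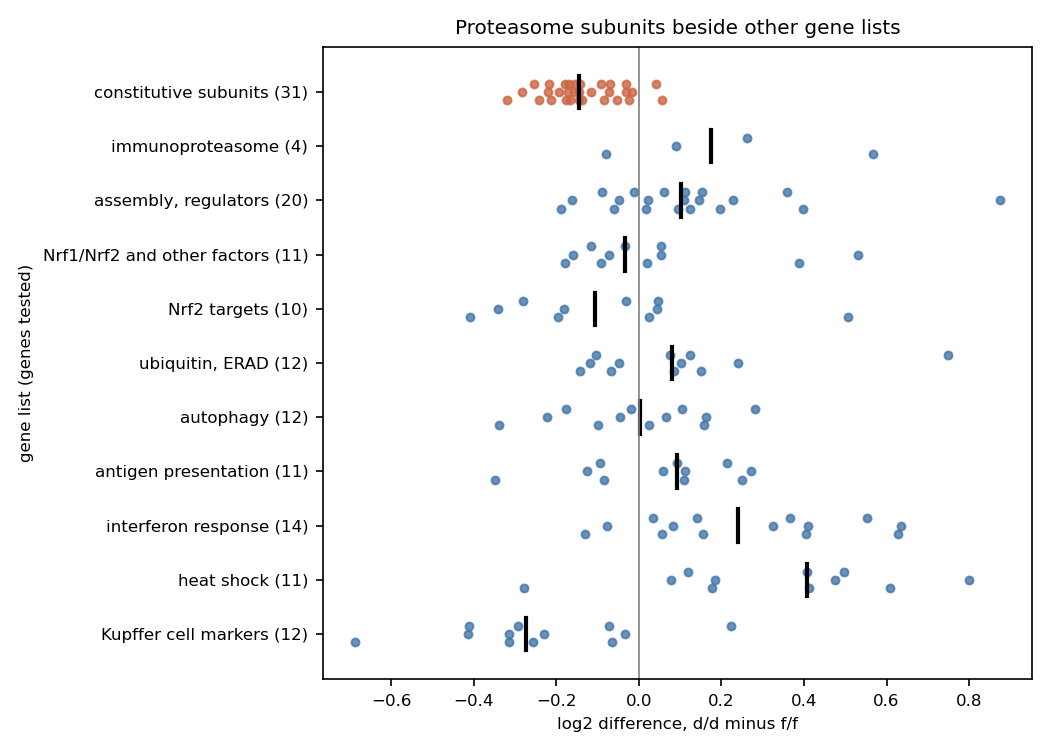
Each point is a gene's log2 difference, d/d minus f/f, in one of 11 lists, and black bars are list medians. The constitutive subunits gather around -0.15 in a narrow band. The 4 immunoproteasome genes are scattered from -0.081 to 0.57 with a median of 0.18. Heat shock genes run from -0.28 to 0.80 with a median of 0.41.

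Of the neighbours of Psmb8 in the major histocompatibility complex, Psmb9 and Tap1 had smaller positive differences and Tap2 a negative one. The genes lie in the order Psmb9, Tap1, Psmb8 and Tap2 on chromosome 17 (GRCm38.p6). Tap1, which shares its upstream stretch with Psmb9, had 0.092 ± 0.14, where Psmb9 had 0.090 ± 0.23. Tap2, the partner of Tap1 in the peptide transporter, read 93.2, 121 and 122 in f/f and 80.1, 92.4 and 80.1 in d/d, a log2 difference of -0.35 ± 0.13 (limma, unadjusted p = 0.0266, adjusted p = 0.542), opposite in sign to Psmb8. Tap1 and Tap2 are both dim here. Over 11 genes of antigen presentation 7 were positive, with a median of 0.092, and 0 passed. B2m, the light chain of class I molecules, had 0.11 ± 0.11.

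Markers of other cells were compared because immune cells carry the immunoproteasome. Fewer cells of a type and less RNA per cell cannot be told apart in whole liver. Of 12 Kupffer cell markers 11 were negative, with a median of -0.27, and their summed intensity ranged from 3319 to 4494 in f/f and from 2808 to 3519 in d/d. Of 10 markers of other myeloid cells 7 were negative, with sums of 1703 to 2404 and 1489 to 1791. Of 6 lymphocyte markers tested 5 were negative, all 6 had intensities under 200 on every array, and the B cell gene Ms4a1 was the exception at 0.93 ± 0.19 (limma, adjusted p = 0.181, but 0.0364 with array weights). The mean log2 level of these 6 was -0.064, -0.17 and 0.21 in f/f and 0.11, 0.033 and -0.12 in d/d. It was highest in f/f replicate 3. The other 5 lymphocyte markers with a probe set, Cd3g, Cd3d, Cd8b1, Cd79b and Nkg7, were under the dim filter. Summed over all 11 lymphocyte markers, with those under the filter included, levels were 678.4 to 886 in f/f and 678.0 to 828 in d/d. The part of these cells in the levels of Psmb8 and Psmb10 was not tested. Summed hepatocyte markers lay between 115787 and 118611 in f/f and between 114787 and 115448 in d/d. Quantile normalization holds the brightest values level, with Alb at 34631 on every array, so these sums cannot compare the groups. Among the less bright markers Tat read 7811, 7014 and 9716 against 6916, 5568 and 6193. Its difference was -0.39 ± 0.15 (limma, unadjusted p = 0.0318, adjusted p = 0.562) and -0.26 without f/f replicate 3. Of the 7 hepatocyte markers 2 were positive.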

How the data were processed

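Biotin-labelled liver RNA was measured on 6 Affymetrix arrays, as the labels' protocols state. The authors deposited linear intensities of 45101 probe sets. How the authors summarized, background-corrected and scaled these intensities, and the genome build, are not given in the sources used here. Probe sets were named through the platform annotation, in which 34945 had 1 symbol and 932 several (not used); 34741 matched the reference gene table and 0 symbols changed.

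Intensities were used as log2(intensity + 16) and quantile normalized, since array medians differed by 0.185 log2. Each gene was read from its brightest probe set, and the lowest 40% of probe sets were left out, at an intensity of 48.3. The d/d and f/f arrays were fitted by genotype alone (limma 3.58.1, lmFit and eBayes, under R 4.3.3; prior and residual degrees of freedom 4.19 and 4), with Benjamini-Hochberg adjustment over 13718 genes and a threshold of 0.05. The fit was tested on simulated data with independent values and shifts far larger than the differences of the members. That test does not show how well differences as small as theirs are found. Tables and figures used pandas 2.3.3 and matplotlib 3.10.9 in Python 3.11.15.

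The members and all gene lists were chosen with earlier results of these data known, and no p is given for a list. The set of named genes held the immunoproteasome genes and the subunits they replace. It also held up to 6 members per direction by p and the extremes of each structural group. From each other list it took key genes and up to 3 with an unadjusted p under 0.05 in limma. Some genes of this set are not described above. Psmb1, Psmb4, Psmc3, Psmd12 and Psmd10 were named after their values were seen. Alternatives covered scaling, the dim filter, probe sets, variance model, weighting of arrays, a block for replicate numbers, pseudocounts of 1 and 64, and each array left out. Outliers were not tested in groups of 3.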

Additional observations from a re-analysis of the deposited data

How the results depend on the processing

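Over 15 alternatives for each of 58 named genes, 840 of 870 values kept their direction and their side of the threshold, and 22 turned sign. The remaining 8 came to pass an adjusted p of 0.05 in limma: Iigp1 with an intensity trend (0.0432), Hsph1 without f/f replicate 3 (0.0258), and with array weights Iigp1 (0.0174), Hsph1 (0.00571), Herpud1 (0.0209), Dnaja1 (0.0312), Ms4a1 (0.0364) and Cd163 (0.0419). No member passed an adjusted p of 0.05 in limma under any alternative (0 of 42, with 4 at an unadjusted p under 0.05). The count over all genes was 13, 21 with an intensity trend, 215 with array weights (0.178 for f/f replicate 3), 6 with the replicate number as a block, and between 4 (d/d replicate 1 omitted) and 91 (f/f replicate 3 omitted) on 5 arrays. Members lower at an unadjusted p under 0.05 in limma numbered 2 with a common median, 2 with a pseudocount of 1, 1 with the replicate block, 5 with array weights, 5 with a pseudocount of 64, and 1 to 4 with 1 array left out. Members higher numbered 2 with array weights, 1 with the block and 0 to 2 with 1 array left out. Psmd9 kept an unadjusted p under 0.05 in limma throughout, from 0.00716 to 0.0488, with adjusted p from 0.194 to 0.971.

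The replicate numbers gave no sign of pairing: deviations from the group means of same-numbered arrays correlated at -0.0033, -0.14 and -0.47. These values cannot exclude a pairing, since deviations from the mean of 3 arrays depend on each other. With the replicate block the members past the unadjusted threshold in limma were Psmb10 (adjusted p = 0.915) and Psmd9. Negative differences among the 31 constitutive subunits numbered 25 when all probe sets of a gene were averaged, and 24 to 29 with 1 array left out, where the median ran from -0.19 to -0.10 and that of the immunoproteasome genes from 0.11 to 0.28.

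Averaging probe sets turned the sign of 5 members, Psma1 (0.061), Psmd2 (0.038), Psmd6 (0.034), Psmd13 (0.013) and Psme4 (0.037), and of Vcp (0.0016). Array weights turned 3 members, Psma4 (-0.0072), Psmd3 (0.036) and Psmd8 (0.029), and Nfe2l1 (0.10) and Tap1 (-0.040). With 1 array left out the ranges of members that crossed 0 were -0.043 to 0.14 for Psma4, -0.076 to 0.038 for Psma6, -0.093 to 0.00019 for Psmb7, -0.17 to 0.094 for Psmc6, -0.42 to 0.034 for Psmd3, -0.11 to 0.033 for Psmd8, -0.24 to 0.060 for Psmd13, -0.12 to 0.10 for Psmd14, -0.20 to 0.32 for Psmb9, -0.32 to 0.031 for Psmd10, -0.054 to 0.046 for Psme4 and -0.38 to 0.0085 for Psmb11. Among the other named genes they were -0.33 to 0.13 for Nfe2l1 and -0.026 to 0.16 for Tap1. The cause was not tested. Psmb11, Tap1 and Tap2 were dim, and whether signal over background limits their differences was not tested. Psmb11 turned sign only without f/f replicate 3. Tap2 kept its sign with 1 array left out, from -0.46 to -0.29.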
